A study of Homo sapiens with 4 samples.

Results

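The cellular defence against hydrogen peroxide, superoxide and electrophiles was followed through 46 genes that make or use glutathione and thioredoxin, remove reactive oxygen directly, or control these systems. They were chosen by name alone from the 16816 protein-coding genes of a table of 32673 genes: the glutathione transferases (GST and MGST), peroxiredoxins 1 to 6, glutathione peroxidases 1 to 5, 7 and 8, thioredoxins, thioredoxin reductases and TXNIP, the superoxide dismutases, and CAT, NQO1, GCLC, GCLM, GSS, GSR, SRXN1, NFE2L2 and KEAP1. The rule uses no expression value, but it was set with earlier results of these data known. Of the 46 genes, 35 had a mean of at least 0.5 FPKM over the 4 libraries and were tested. FPKM are fragment numbers divided by the length given to the gene and by library size.

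Total RNA of 2 cell lines, TF1-BA and TF1-BAR, was sequenced, with 2 libraries per line of 10000000 cells each. TF1 is a human erythroleukaemia line that depends on the cytokine GM-CSF, and the TF1-BA cells carry the p210 form of BCR-ABL, the fusion kinase of chronic myeloid leukaemia, delivered by a retrovirus and leaving the cells sensitive to the kinase inhibitor imatinib. The TF1-BAR cells were derived from them by prolonged continuous imatinib treatment and are resistant. Below, the sensitive libraries and cells are those of TF1-BA and the resistant ones those of TF1-BAR. Both lines therefore carry BCR-ABL, both were kept with GM-CSF and fetal bovine serum (the labels and the methods of the study disagree on the GM-CSF concentration), and the TF1-BAR cells were grown with 2 uM imatinib. Whether imatinib was still in the medium at RNA extraction is not stated in the sources, so resistance and drug exposure cannot be told apart, and the resistant libraries carry the title VECTOR beside the name TF1-BAR. Each line is a single derivative of TF1, and since nothing states that the libraries came from separate cultures, the p-values measure only the spread between these libraries. In bulk RNA, a lower level in every cell and fewer cells with the transcript cannot be told apart.

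Glutathione is a tripeptide made in sequential steps, the first by glutamate-cysteine ligase (the catalytic subunit GCLC and the modifier subunit GCLM) and the second by glutathione synthetase (GSS). Glutathione peroxidases use it to reduce peroxides, glutathione transferases attach it to electrophiles, and glutathione reductase (GSR) restores its reduced form with NADPH. The thioredoxin system runs in parallel: peroxiredoxins reduce peroxides, thioredoxin re-reduces the peroxiredoxins, and thioredoxin reductase re-reduces thioredoxin. Many of these genes are transcribed under the factor NRF2, the product of NFE2L2, which binds antioxidant response elements as a pair with a small MAF protein. KEAP1 holds NRF2 for degradation in unstressed cells. In erythroid and myeloid cells, catalase, peroxiredoxin 2 and superoxide dismutase 1 are known as major protectors against peroxide and superoxide.

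The core letters of the antioxidant response element, TGACNNNGC, were looked for on both strands of the 300 bases around gene starts (250 before to 50 after) in the RefSeq promoter table of GRCh38.p14. 39 of the 46 genes matched a window. Of these, 9 held the letters in a window, against 16.1% of all genes with a window (13.3% of all 35116 windows). Among genes whose RNA was lower in the TF1-BAR cells, 4 of the 12 with a window held them (GCLM, GSTO1, GSTP1 and TXNRD1), as did 1 of the 3 higher genes (KEAP1) and 2 of the 13 other tested genes. The 2 other tested genes with the letters were GSTA4 and MGST1, and GPX2 and GSTM5, below the filter, held them too. Only stretches of genes called lower or higher are shown, so they were selected on the result. Each is written in the direction of its gene with the matched letters in capitals, and positions count from the RefSeq start.
GCLM (chr1:93909446-93909474, minus strand, match starting at -34): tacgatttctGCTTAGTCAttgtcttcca
GSTP1 (chr11:67583736-67583764, plus strand, match starting at -66): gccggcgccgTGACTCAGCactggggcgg
TXNRD1 (chr12:104215670-104215698, plus strand, match starting at -99): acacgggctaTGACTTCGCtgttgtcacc
GSTO1 (chr10:104254656-104254684, plus strand, match starting at -226): ggcggagggaTGACTGAGCatttataact
GSTO1 (chr10:104254721-104254749, plus strand, match starting at -161): cgagatgcttTGACACAGCcccttaagat
KEAP1 (chr19:10502807-10502835, minus strand, match starting at -54): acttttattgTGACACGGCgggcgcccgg
KEAP1 (chr19:10502784-10502812, minus strand, match starting at -31): gcccggctctGCTTAGTCAtggtgacctg
The GCLM match and the second KEAP1 match lie on the strand opposite to their genes and share the same 9 letters. The GSTP1 match also holds TGACTCA, the letters of the AP-1 element, which stood on either strand in 4.95% of all windows. TXNRD1 had further matches at another start of the gene and next to its first start. No match was found in the windows of CAT, GCLC, GSTM3, MGST3, NFE2L2, NQO1, PRDX2 and PRDX3, which says only that these letters are not in those windows.

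In the TF1-BAR cells, the RNA of 14 of the 35 tested genes was lower and that of 3 was higher than in the TF1-BA cells (limma, Benjamini-Hochberg adjusted p under 0.05). The lower genes were NQO1, PRDX3, GCLM, GSTO1, GSTM3, NFE2L2, CAT, MGST3, TXNRD1, SOD1, GCLC, PRDX1, PRDX2 and GSTP1, and the higher genes were GSTM2, GSTK1 and KEAP1. The called genes were 48.6% of those tested, against 26.9% of all 15519 genes tested. By direction, 40.0% of the antioxidant genes were lower against 10.5% of all genes, and 8.57% were higher against 16.3% of all genes. The split of all genes moved with the scaling, from 2537 higher and 1630 lower here to 1788 and 1908 after chromosome centring, 2042 and 1938 with quantile normalization, and 3158 and 1340 on the TPM scale, where 1, 2 and 3 antioxidant genes were higher and 15, 14 and 12 lower. Among protein-coding genes alone, 12.5% were lower and 16.6% higher. The median log2 fold change of the 35 genes was -0.24, and that of all genes tested was 0.066.

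Most of the differences were modest in size. Only 3 genes also passed a log2 fold change of 1 in size (8.57%, against 4.75% of all genes). NQO1 and PRDX3 were lower (5.71%, against 1.69% of all genes) and GSTM2 was higher (2.86%, against 3.05%). The libraries of the lines did not overlap for 27 genes (77.1%, against 69.3% of all genes), 21 of them lower and 6 higher, where 28.4% of all genes were lower without overlap and 40.9% higher. The summed FPKM of all 46 genes was 1673.9 and 1676.7 in the sensitive libraries and 1405.3 and 1419.5 in the resistant libraries, where the FPKM of all 32673 genes summed to about 304500 and 304200 in the sensitive and 291200 and 289300 in the resistant libraries. With 2 libraries per line the smallest p that an exact permutation test over libraries can give is 0.333, which this sum reached. With 1 library left out, the numbers of called genes fell: 1 gene (NQO1) passed without TF1-BA library 1, 0 without TF1-BA library 2, 12 without TF1-BAR library 1 and 8 without TF1-BAR library 2. At an unadjusted p under 0.05, 16 genes passed with either TF1-BA library left out. Over all genes tested, the counts at an adjusted p under 0.05 were 144, 42, 3176 and 1028. The 17 called genes kept their direction in each of the 17 alternative settings.

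**Figure D1:**
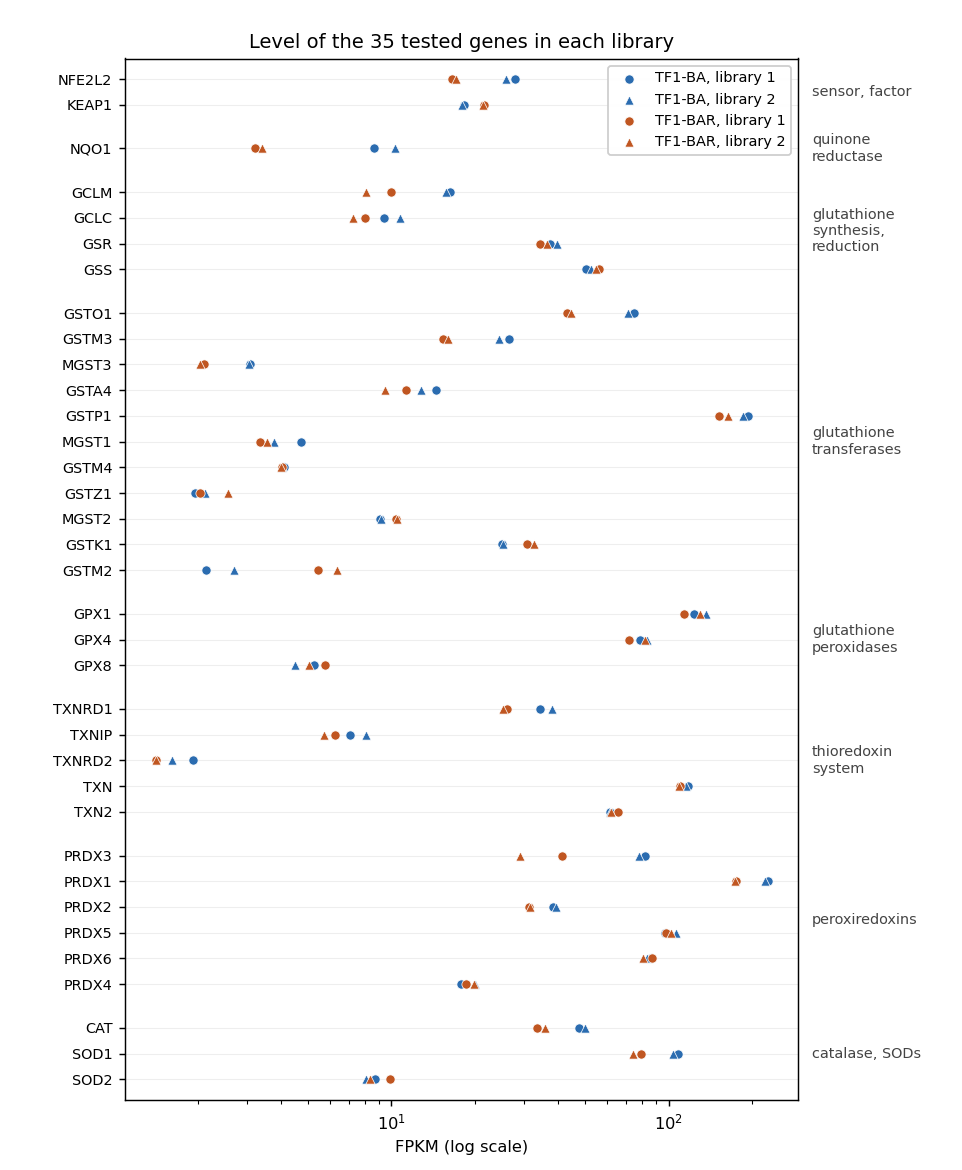
FPKM on a log scale of the 35 tested genes, grouped by role, in each library (blue, TF1-BA; orange, TF1-BAR; circles, library 1; triangles, library 2). The orange marks lie to the left of the blue ones for 21 genes and to the right for 6.

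The libraries held 15465497 to 18042299 mapped fragments, recovered from the steps between the FPKM values. Chromosomes 10 and 20 stood apart as a whole: the median log2 fold change was -0.346 over the 593 tested genes of chromosome 10 and 0.39 over the 440 of chromosome 20, while the other chromosomes had medians from -0.0131 to 0.119. GSTO1, GSTO2 and PRDX3 lie on chromosome 10, and GSS and SRXN1 on chromosome 20. Among the 32 tested genes outside these chromosomes, 12 were lower and 3 higher, with a median of -0.19. All 10 markers of the TF1 line, CD34 and GATA1 among them, were at 1 FPKM or more in every library, with a sum of 544.1 and 511.5 FPKM in the TF1-BA against 672.9 and 703.8 in the resistant libraries. CD34, KIT and CD33 were higher in the resistant cells, with log2 fold changes of 1.17, 1.12 and 0.87 (adjusted p = 0.00409, 0.00409 and 0.00555). Of the other cell types looked for, the 4 fibroblast genes were below 0.5 FPKM throughout. Of the T cell genes, CD3E, CD3G and CD2 were below 0.5 FPKM, with CD3D at 5.74 to 20.7 FPKM and a sum of 19.3 and 20.8 in the TF1-BA against 5.83 and 6.4 in the resistant libraries. For B cells, CD79A was at 1.84 to 3.55 and PAX5 at 0.0867 to 0.139 FPKM. For monocytes, CD14 and FCGR3A were below 0.5 FPKM and the sum was 0.328 and 0.37 against 1.43 and 1.42. For epithelial cells, EPCAM and CDH1 were near 0 while KRT8 and KRT18 were expressed, with sums of 41.1 and 44.2 against 68.1 and 67.4, and for endothelial cells VWF was near 0, with KDR at 9.7 to 45.5 FPKM and sums of 10.7 and 10.4 against 38.9 and 49.1. The part of these shifts in the results below was not tested.

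The factor was lower in the resistant cells, and the call of its inhibitor as higher lay near the threshold. NFE2L2, which encodes NRF2, stood at 27.9 and 25.8 FPKM in the sensitive libraries and at 16.5 and 17.1 in the resistant libraries. Both resistant libraries were below both sensitive ones, and the log2 fold change was -0.66 (SE 0.0724, adjusted p = 0.00776). KEAP1, the adaptor through which NRF2 is ubiquitinated, was at 18.2 and 17.9 FPKM in the TF1-BA and 21.5 and 21.4 in the resistant libraries. The lines did not overlap, and the log2 fold change was 0.24 (SE 0.0623, adjusted p = 0.0459). The KEAP1 call was kept in only 7 of the 13 alternative settings that use the 4 libraries. It was lost, among others, after each chromosome was centred (log2 fold change 0.08, adjusted p = 0.45). The ratio of KEAP1 to NFE2L2 FPKM was 0.65 and 0.695 in the sensitive cells and 1.3 and 1.25 in the resistant cells (exact permutation p = 0.333). NFE2L2 lies on chromosome 2 (177227595 to 177392697, minus strand, GRCh38). In the GENCODE 44 annotation 23.4% of its exon bases are shared with HNRNPA3 on the opposite strand. The length behind its FPKM was a fitted one and not that of GENCODE 44, so the overlap in the counted annotation is not known. HNRNPA3 was at 99.2 and 95.8 FPKM in the TF1-BA and 96.6 and 83.8 in the resistant libraries, and reads of overlapping genes on opposite strands could not be told apart in these libraries, which were counted without strand.

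The quinone reductase NQO1, which reduces quinones in a single step of 2 electrons and is a widely used read-out of NRF2 activity, had the largest fold change of the 35 genes. It was at 8.67 and 10.3 FPKM in the sensitive libraries (at least 509 and 519 fragments) and at 3.22 and 3.4 in the resistant libraries (at least 165 and 178 fragments). The mean of the TF1-BA cells was thus 2.87 times that of the TF1-BAR cells, with a gap between the lines wider than the spread within either. The log2 fold change was -1.39 (SE 0.109, adjusted p = 0.00465). NQO1 lies on chromosome 16 (69706996 to 69726951, minus strand), and 19.4% of its exon bases are shared with a noncoding gene on the other strand in GENCODE 44. Of the 11 tested protein-coding neighbours starting within 500 kb, 0 were lower and 1 was higher (0 and 3 at an unadjusted p under 0.05), with a median log2 fold change of 0.22, where 8.01% of all tested genes of chromosome 16 were lower and 14.4% higher.

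In glutathione synthesis, GCLM was lower, the call of GCLC lay at the threshold, and the second enzyme was not called. GCLM, the modifier subunit that makes the ligase more efficient, was at 16.2 and 15.7 FPKM in the TF1-BA and 9.95 and 8.06 in the resistant libraries. Every resistant library was below every sensitive one, and the log2 fold change was -0.80 (SE 0.114, adjusted p = 0.0122). The catalytic subunit GCLC was at 9.42 and 10.7 FPKM in the TF1-BA and 8.02 and 7.24 in the resistant libraries. The gap was smaller, with a log2 fold change of -0.38 (SE 0.1, adjusted p = 0.0497). The GCLC call was lost in 6 of the 13 alternative settings that use the 4 libraries, chromosome centring among them (log2 fold change -0.39, adjusted p = 0.0596), and whenever 1 library was left out. GSS was at 50.5 and 52.3 FPKM in the TF1-BA and 56.0 and 54.9 in the resistant libraries (log2 fold change 0.11, SE 0.0583, adjusted p = 0.222). GSS lies on chromosome 20, where the median gene was higher, and after centring of each chromosome its value was -0.34 with an adjusted p of 0.0348. GSR, which regenerates reduced glutathione, was at 37.4 and 39.7 FPKM in the TF1-BA and 34.2 and 36.3 in the resistant libraries (log2 fold change -0.13, SE 0.069, adjusted p = 0.228). The ratio of GCLC to GCLM FPKM was 0.582 and 0.681 in the sensitive and 0.806 and 0.899 in the resistant cells (exact permutation p = 0.333).

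**Figure D2:**
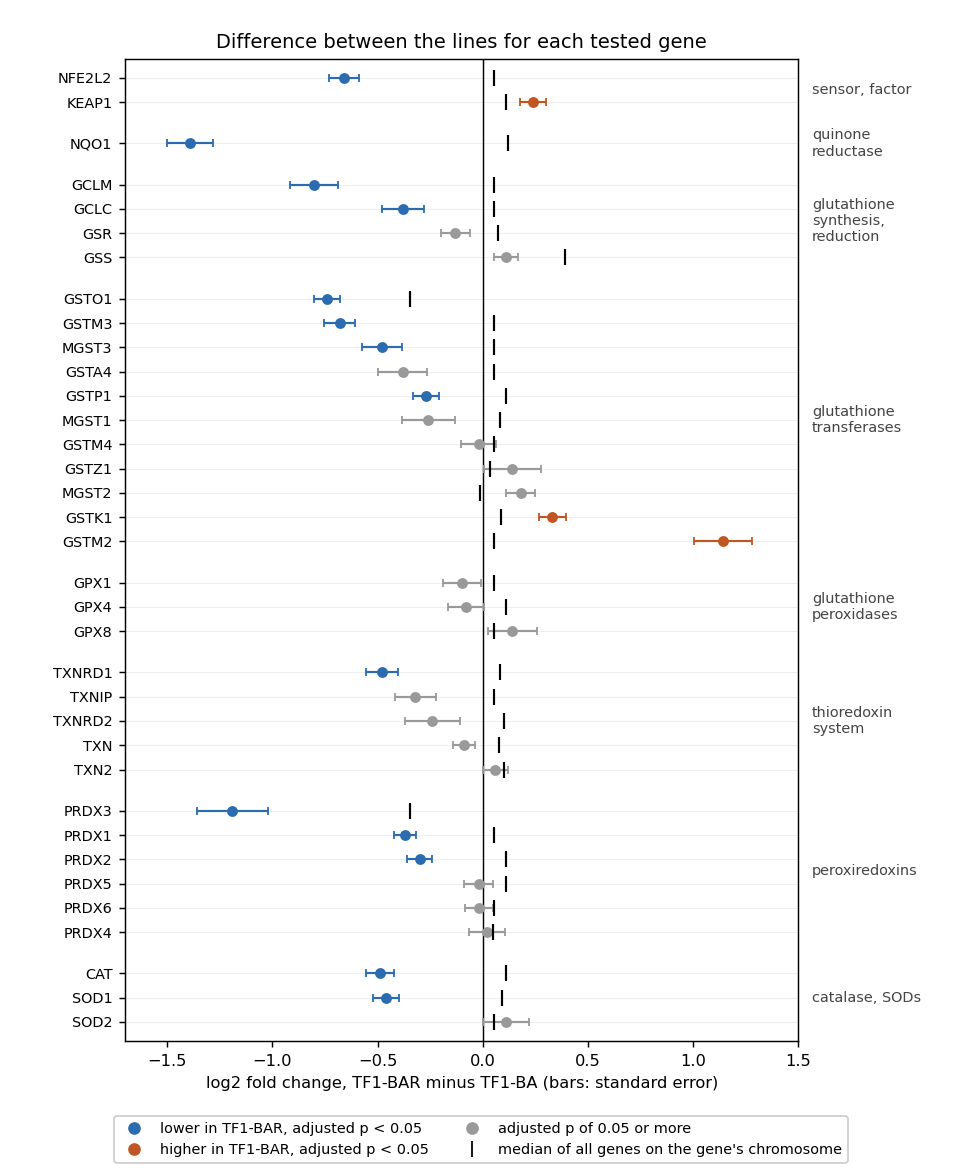
Log2 fold change of TF1-BAR minus TF1-BA for the 35 tested genes, with standard errors, grouped by role (blue, lower; orange, higher; grey, adjusted p of 0.05 or more). Black ticks mark the median of all tested genes on the same chromosome, which was -0.346 for GSTO1 and PRDX3 and 0.39 for GSS.

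Of the 11 tested glutathione transferases, 4 were lower, 2 were higher and 5 did not pass the test, where 10.5% of all genes were lower and 16.3% higher. GSTP1, the pi-class enzyme, had the highest FPKM of the transferases here. It was at 194.0 and 185.1 FPKM in the TF1-BA and 152.0 and 163.2 in the resistant libraries. The libraries did not overlap, and the log2 fold change was -0.27 (SE 0.064, adjusted p = 0.0392). The GSTP1 call was lost in 5 of the 13 alternative settings that use the 4 libraries, with adjusted p-values up to 0.111, and whenever 1 library was left out. GSTO1, an omega-class enzyme that acts mainly as a thiol transferase and a dehydroascorbate reductase, was at 75.0 and 71.2 FPKM in the TF1-BA and 43.0 and 44.5 in the resistant libraries. The resistant cells had well under the level of the sensitive cells in both libraries (log2 fold change -0.74, SE 0.062, adjusted p = 0.00534). The median of its chromosome was -0.346, and after centring of each chromosome the GSTO1 value was -0.32 (adjusted p = 0.0252). Within 500 kb of the GSTO1 start, 3 of 5 tested protein-coding genes were lower, with a median of -0.57, where 44.5% of all tested genes of chromosome 10 were lower. GSTO2, its neighbour, was below the filter, at 0.62 and 0.645 FPKM in the TF1-BA and 0.326 and 0.194 in the resistant libraries. MGST3, a membrane-bound transferase of lipid peroxides and leukotrienes, had a log2 fold change of -0.48 (SE 0.0951, adjusted p = 0.0254), from 3.09 and 3.07 FPKM in the TF1-BA to 2.1 and 2.04 in the resistant libraries.

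Within the mu-class cluster on chromosome 1, neighbouring genes went opposite ways. GSTM3 was at 26.5 and 24.5 FPKM in the TF1-BA and 15.3 and 16.0 in the resistant libraries. It was lower in both resistant libraries, with a log2 fold change of -0.68 (SE 0.0746, adjusted p = 0.00774). GSTM2, which starts 73.0 kb away, was at 2.15 and 2.7 FPKM in the TF1-BA and 5.44 and 6.38 in the resistant libraries. It was higher in both resistant libraries (log2 fold change 1.14, SE 0.137, adjusted p = 0.00911), and its fragments numbered 353 and 380 against 782 and 935. GSTM4, which lies beyond GSTM2, was at 4.11 and 4.04 against 4.03 and 4.0 FPKM (log2 fold change -0.02, adjusted p = 0.875). GSTM3 made up 80.9% and 78.4% of the summed GSTM FPKM in the sensitive libraries and 61.7% and 60.7% in the resistant libraries, while GSTM2 made up 6.55% and 8.64% against 22.0% and 24.1% (exact permutation p = 0.333 for each). Of the 15 tested protein-coding genes within 500 kb of the GSTM3 start, 3 were lower and 4 higher, with a median of 0.1, where 10.2% of all tested genes of chromosome 1 were lower and 17.0% higher. The GSTM genes are close copies of each other, and GSTM2 shares 6.13% of its exon bases with another gene of the class in GENCODE 44, so fragments may have been divided between them.

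Of the remaining transferases, GSTK1 was higher and the others did not pass the test. GSTK1, the mitochondrial and peroxisomal kappa-class enzyme, was at 25.1 and 25.3 FPKM in the TF1-BA and 30.9 and 32.6 in the resistant libraries (log2 fold change 0.33, SE 0.0641, adjusted p = 0.0251). After chromosome centring the GSTK1 log2 fold change was 0.21 (adjusted p = 0.0785). GSTA4, which conjugates the lipid peroxidation product 4-hydroxynonenal, was at 14.5 and 12.8 against 11.3 and 9.47 FPKM (log2 fold change -0.38, adjusted p = 0.0696). The values of MGST1, MGST2, GSTZ1 and GSTM4 lay between -0.26 and 0.18 on the log2 scale, with adjusted p-values from 0.115 to 0.875. The summed FPKM of the GST genes without the MGST genes was 344.0 and 328.4 in the sensitive and 264.5 and 279.1 in the resistant cells (exact permutation p = 0.333). GSTP1 supplied 56.4% of this sum in both TF1-BA libraries and 57.5% and 58.5% in the resistant libraries, and GSTO1 supplied 21.8% and 21.7% against 16.2% and 15.9%.

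None of the 3 tested glutathione peroxidases passed the test (limma), 0 had an unadjusted p under 0.05 and 0 were called by limma voom on recovered fragments, and 0 of them had libraries that did not overlap between the lines, where 26.9% of all genes were called and 69.3% did not overlap. GPX1, the main cytosolic enzyme and a selenoprotein, was at 123.8 and 136.0 FPKM in the TF1-BA and 113.8 and 129.6 in the resistant libraries (log2 fold change -0.10, SE 0.0895, adjusted p = 0.46). GPX4, which reduces lipid hydroperoxides in membranes and holds back ferroptosis, was at 79.1 and 83.6 against 71.9 and 82.4 FPKM (log2 fold change -0.08, SE 0.0857, adjusted p = 0.529). GPX8, an enzyme of the endoplasmic reticulum, had a log2 fold change of 0.14 and an adjusted p of 0.421. GPX1 and GPX4 together supplied 96.6% to 97.7% of all GPX FPKM in each library. In GENCODE 44 the annotated exons of GPX1 overlap another gene of the same strand over 39.9% of their bases.

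**Figure D3:**
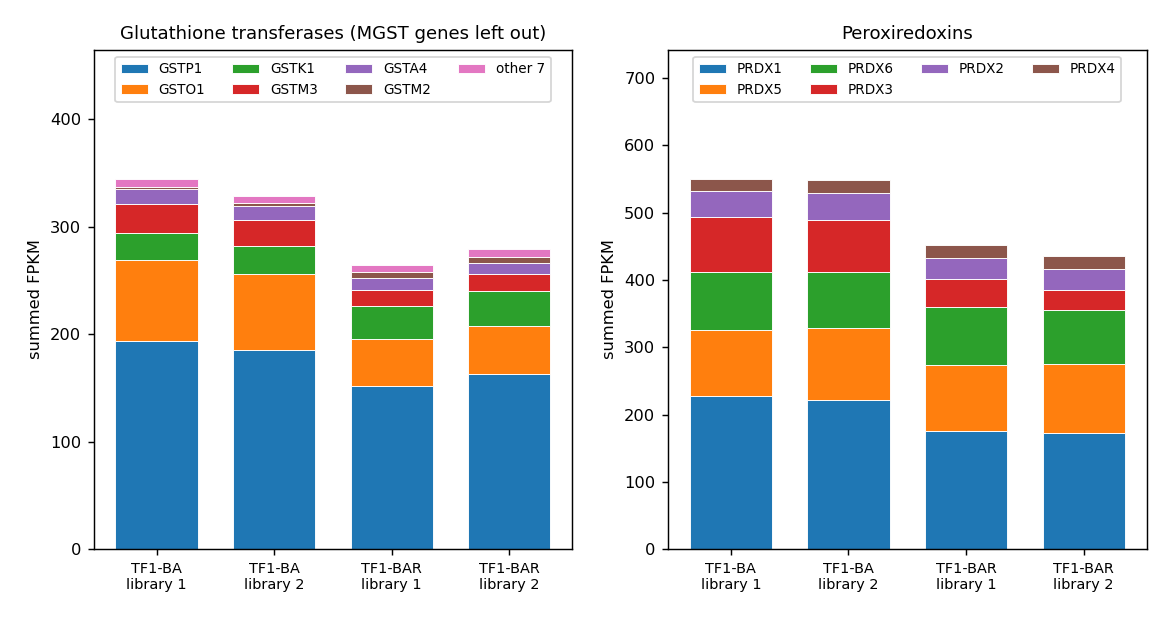
Summed FPKM of the glutathione transferases without the MGST genes (left) and of the peroxiredoxins (right) in each library, stacked by gene. The bars of the TF1-BAR libraries reached 264.5 and 279.1 for the transferases and 451.4 and 435.8 for the peroxiredoxins, below the TF1-BA bars in both families.

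Of the thioredoxin system, the cytosolic reductase was lower and the other 4 genes did not pass the test, against 10.5% of all genes that were lower. TXNRD1, the selenoenzyme that reduces cytosolic thioredoxin, was at 34.2 and 37.8 FPKM in the TF1-BA and 26.1 and 25.3 in the resistant libraries. The lines did not overlap, with a log2 fold change of -0.48 (SE 0.0754, adjusted p = 0.0151). Its substrate TXN was at 117.7 and 115.4 FPKM in the TF1-BA and 109.9 and 109.0 in the resistant libraries (log2 fold change -0.09, SE 0.053, adjusted p = 0.253). TXNIP, which binds thioredoxin and blocks it, was at 7.11 and 8.06 against 6.23 and 5.73 FPKM (log2 fold change -0.32, SE 0.0976, adjusted p = 0.0701). The mitochondrial pair was not called: TXN2 had a log2 fold change of 0.06 (adjusted p = 0.507) and TXNRD2 one of -0.24 (adjusted p = 0.222).

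Among the peroxiredoxins, PRDX1, PRDX2 and PRDX3 were lower, and PRDX4, PRDX5 and PRDX6 did not pass the test, against 10.5% of all genes that were lower. PRDX1 to PRDX4 are typical 2-cysteine enzymes, of which PRDX1 and PRDX2 act in the cytosol, PRDX3 in mitochondria and PRDX4 in the secretory pathway. PRDX3 was at 82.1 and 78.0 FPKM in the TF1-BA and 41.3 and 29.2 in the resistant libraries. Both resistant libraries were far below the sensitive ones but also differed from each other, and the log2 fold change was -1.19 (SE 0.168, adjusted p = 0.0119). PRDX1 had the highest mean FPKM of the 46 genes. It was at 227.9 and 222.0 FPKM in the TF1-BA and 175.5 and 172.8 in the resistant libraries (log2 fold change -0.37, SE 0.0522, adjusted p = 0.0121). PRDX2, which is very abundant in red cells, was at 38.2 and 39.3 against 31.3 and 31.5 FPKM (log2 fold change -0.30, SE 0.0594, adjusted p = 0.0257). PRDX6, the 1-cysteine member with an added phospholipase activity, was at 86.4 and 83.4 against 87.0 and 80.5 FPKM (log2 fold change -0.02, SE 0.0661, adjusted p = 0.836), and its libraries overlapped between the lines. PRDX4 and PRDX5 had log2 fold changes of 0.02 and -0.02 with adjusted p-values of 0.858 and 0.818. In the summed peroxiredoxin FPKM, PRDX3 made up 14.9% and 14.2% in the TF1-BA and 9.14% and 6.69% in the resistant libraries, and PRDX6 made up 15.7% and 15.2% against 19.3% and 18.5% (exact permutation p = 0.333 for each). In GENCODE 44, MMACHC on the opposite strand overlaps 29.8% of the PRDX1 exon bases and was at 3.09 to 3.75 FPKM.

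PRDX3 lies on chromosome 10 (119167703 to 119178833, minus strand), where 44.5% of all tested genes were lower and 4.38% higher. Of the 8 tested protein-coding genes that start within 500 kb, 5 were lower and 0 were higher (7 and 0 at an unadjusted p under 0.05), with a median log2 fold change of -0.59. With 8 genes this share was not tested against that of the chromosome. They included BAG3, a co-chaperone, at -1.73 (SE 0.105, adjusted p = 0.00337), and the kinase gene GRK5 at -0.95 (adjusted p = 0.0179). EIF3A, 98.0 kb from PRDX3, was at -0.10 (adjusted p = 0.241). After centring of each chromosome, PRDX3 had a log2 fold change of -0.78 (adjusted p = 0.0317), so that NQO1 was then the only lower gene past a log2 fold change of 1 in size.

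Of the enzymes that act on superoxide and peroxide without a thiol partner, CAT and SOD1 were lower, SOD2 did not pass the test and SOD3 was below the filter. Catalase (CAT), which breaks down hydrogen peroxide in peroxisomes, was at 47.6 and 49.9 FPKM in the TF1-BA and 33.5 and 35.7 in the resistant libraries. The gap between the lines was many times the spread within them, with a log2 fold change of -0.49 (SE 0.0673, adjusted p = 0.0115). SOD1, the cytosolic copper and zinc enzyme, was at 107.9 and 103.9 FPKM in the TF1-BA and 79.2 and 74.5 in the resistant libraries. It was also lower in both resistant libraries (log2 fold change -0.46, SE 0.0623, adjusted p = 0.0112). SOD2, the mitochondrial manganese enzyme, was at 8.71 and 8.07 against 9.91 and 8.34 FPKM, and its libraries overlapped (log2 fold change 0.11, SE 0.108, adjusted p = 0.476). The ratio of SOD1 to SOD2 FPKM was 12.4 and 12.9 in the sensitive and 7.99 and 8.93 in the resistant cells (exact permutation p = 0.333). The size of this ratio depends on the fitted lengths, 2019 bases for SOD1 and 18985 for SOD2. In TF1-BA library 1 the fragments numbered at least 3930 and 2984.

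Of the 11 genes below the filter, those other than GSTO2 were at 0.515 FPKM or less in every library. The alpha-class transferases GSTA1, GSTA2 and GSTA3 were at 0.0703 FPKM or less, the extracellular dismutase SOD3 at 0.0298 or less and GSTM5 at 0.0207 or less, and each of these genes was listed at 0 in at least 1 library. GPX2 and GPX5 were at 0.0423 to 0.127 FPKM. GPX3, the plasma enzyme, was at 0.0701 and 0.0613 FPKM in the TF1-BA and 0.14 and 0.236 in the resistant libraries, and GPX7 was at 0.344 to 0.515 FPKM. SRXN1, sulfiredoxin, which repairs over-oxidised peroxiredoxins, was at 0.0205 and 0.168 FPKM in the TF1-BA and 0.0235 and 0.161 in the resistant libraries. In GENCODE 44, 90.7% of the SRXN1 exon bases are shared with another gene on the same strand that was itself at 0.117 FPKM or less in each library, so the SRXN1 level is uncertain.

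Genes known as other targets of NRF2 were also mostly lower. Of 29 tested genes of such a list, 19 were lower and 2 higher, a share of 65.5% lower against 10.5% of all genes, and the median log2 fold change was -0.47. Outside chromosomes 10 and 20, 16 of 26 were lower and 2 higher. Haem oxygenase HMOX1, which opens the haem ring, was at 38.9 and 58.4 FPKM in the TF1-BA and 19.8 and 22.2 in the resistant libraries (log2 fold change -1.17, SE 0.2, adjusted p = 0.0185). Its TF1-BA libraries differed from each other but lay above both TF1-BAR libraries. OSGIN1, an oxidative stress-induced growth inhibitor, was at 2.39 and 3.44 against 0.788 and 0.701 FPKM (log2 fold change -1.44, SE 0.186, adjusted p = 0.0103). The aldo-keto reductases AKR1C1, AKR1C2 and AKR1C3 had log2 fold changes of -1.44, -2.05 and -1.62. They lie together on chromosome 10 and are near-identical copies between which fragments may be divided, so their separate levels are uncertain.

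Other members of that list supply NADPH, cystine or iron storage. FTL, the light chain of ferritin, was at 2007.3 and 2202.6 FPKM in the TF1-BA and 1255.6 and 1343.7 in the resistant libraries (log2 fold change -0.69, SE 0.071, adjusted p = 0.00688), while the heavy chain FTH1 had a log2 fold change of 0.12 (adjusted p = 0.562). The NADPH producers PGD, ME1 and IDH1 were lower, at -0.59, -0.68 and -0.50 on the log2 scale, as was TALDO1 at -0.35. TKT was at 0.01 (adjusted p = 0.875). SLC7A11, the cystine carrier of the glutathione supply, was at 15.8 and 15.2 against 11.9 and 10.3 FPKM (log2 fold change -0.47, SE 0.0919, adjusted p = 0.0251). The higher genes were the export pumps ABCC4 at 0.63 (adjusted p = 0.00597) and ABCC5 at 0.29 (adjusted p = 0.0301).

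The regulators and partners of these systems were read against 10.5% lower and 16.3% higher among all genes. Of 14 tested regulators of NRF2 other than KEAP1, 1 was lower (7.14%) and 2 were higher, with a median of 0.05: NFE2L3 at -0.36 (adjusted p = 0.0266), NFE2 at 0.35 (adjusted p = 0.0423) and BTRC, an adaptor of another ubiquitin ligase of NRF2 that lies on chromosome 10, at 0.66 (adjusted p = 0.0191). BACH1, a repressor at antioxidant response elements, was at 0.22 (adjusted p = 0.115). Of 24 partners of the glutathione cycle, 7 were lower (29.2%) and 2 higher, with a median of -0.19. Among them GGT5, which splits extracellular glutathione conjugates, was at 9.11 and 8.31 FPKM in the TF1-BA against 3.46 and 2.99 in the resistant libraries (log2 fold change -1.31, SE 0.104, adjusted p = 0.00473), and CHAC1, which degrades glutathione inside the cell, was at -0.78 (adjusted p = 0.00794). The higher genes were GGT7, of the same family as GGT5 and on chromosome 20, at 0.72 (adjusted p = 0.00992), and GLO1, glyoxalase of methylglyoxal detoxification, at 0.42 (adjusted p = 0.0189). Of 24 partners of the thioredoxin system, 7 were lower (29.2%) and 1 higher with a median of -0.19, and the ribonucleotide reductase subunits RRM1 and RRM2, to which thioredoxin gives electrons, were at -0.33 and -0.80 (adjusted p = 0.0317 and 0.0101). RRM2B, the alternative small subunit, was at 10.7 and 10.4 FPKM against 11.8 and 9.41 (adjusted p = 0.992).

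Of 18 genes of selenoprotein synthesis and other selenoproteins, 2 were lower (11.1%, against 10.5% of all genes) and 1 was higher, with a median of -0.21. Of 8 tested genes of NADPH oxidase and other oxidant sources, 2 were lower (25.0%) and 0 higher, with a median of 0.08, NCF1 at -0.81 (adjusted p = 0.0349) and ACSL4 at -0.43 (adjusted p = 0.0475), and NCF1 has near-identical pseudogenes. CYBB, the catalytic subunit of the phagocyte oxidase, was at 0.677 and 0.716 against 1.39 and 1.07 FPKM (log2 fold change 0.53, adjusted p = 0.0798). Of 4 tested metallothioneins, 1 was lower (25.0%) and 0 higher, with a median of 0.14. MT1G was at 18.3 and 17.4 FPKM in the TF1-BA against 7.7 and 8.54 in the resistant libraries (log2 fold change -1.09, SE 0.083, adjusted p = 0.00439), and MT2A was at 88.6 and 103 against 80.7 and 98.8 FPKM. MT1F and MT1X were each at 0.38 (adjusted p = 0.111 and 0.184). The sizes of these lists are small, and no test of a list against other genes was made.

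**Figure D4:**
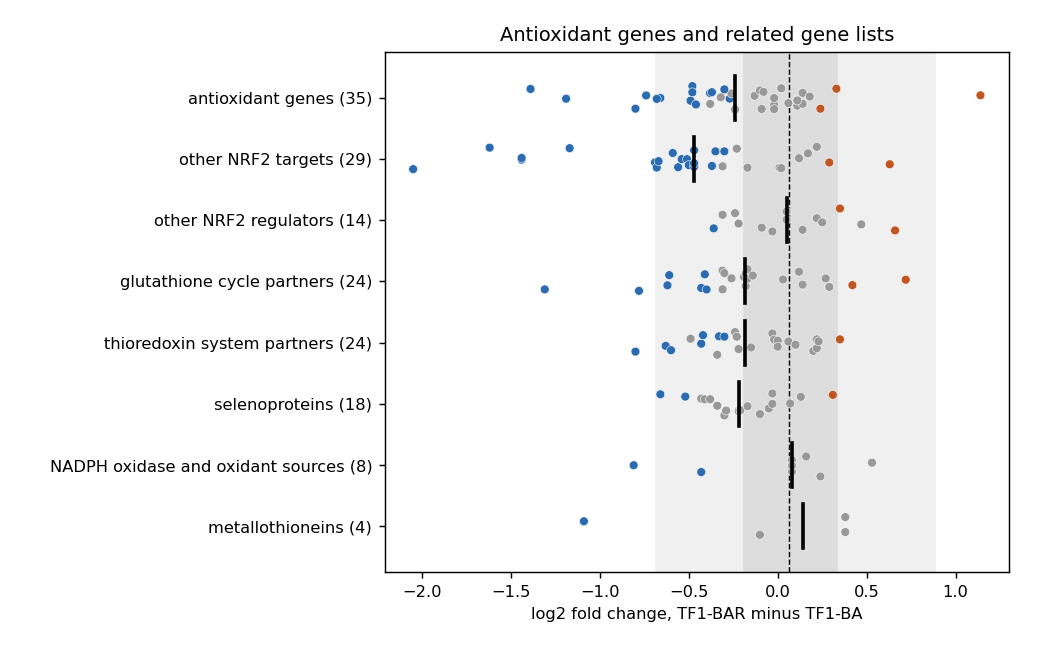
Log2 fold change of TF1-BAR minus TF1-BA for the tested antioxidant genes and 7 related lists, with the number of tested genes in brackets (blue, lower; orange, higher; grey, not called; black bar, median of the list). The shaded bands span the 25th to 75th and the 5th to 95th percentile of all genes tested and the dashed line is their median of 0.0658, and the median of the other NRF2 targets lay at -0.47.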

How the data were processed

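Gene expression was analysed from the FPKM values deposited by the authors for 32673 genes in 2 TF1-BA and 2 TF1-BAR libraries. The authors prepared the libraries from total RNA (TRIzol) with the NEBNext Ultra kit, mapped the paired-end reads to GRCh38 with TopHat2 2.0.13, and ran Cufflinks and Cuffdiff 2.2.0 and DESeq2. The kit does not mark strand and the pipeline was run with its default settings, which do not use strand; the annotation release is not given in the sources used here. Samples were grouped by the line name in their labels. The identifiers were used to recover 26 symbols that a spreadsheet had made into dates.

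The deposited values were tested with limma (version 3.58.1, R 4.3.3), by linear models and empirical Bayes moderation with a mean-dependent trend, on log2(FPKM + 0.5) over the 15519 genes averaging 0.5 FPKM or more. Benjamini-Hochberg adjustment ran over all of them, and a gene was called at an adjusted p under 0.05. Fold changes on this scale understate the change of low genes. The deposited FPKM are per length, with fitted lengths up to 18985 bases (SOD2) among the antioxidant genes. Ratios, shares and ranks of different genes therefore depend on these lengths, which were not checked against the expressed transcripts. Fragments were recovered as the whole numbers that give the FPKM values in all 4 libraries within 0.01 fragments, at the GENCODE 44 exon length for 14816 genes and at the shortest fitted length for 16037, which makes the latter minimums. Fragment numbers cover counting error only. The libraries had 18042299, 15465497, 15761642 and 16074303 fragments. The listed genes held 98.7% of each. With wrong library sizes, 0 of 300 genes came out whole. That control searched a shorter range of lengths than the fit itself, so it does not cover the longest fitted lengths.

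Ratios and shares were compared by two-sided exact permutation tests over libraries. Every tested antioxidant gene is named, and library values are given for those with an adjusted p under 0.05 and a log2 fold change of 0.5 or more in size and for a fixed set of central genes; of the related lists, genes that also reach a log2 fold change of 1 in size are named, and further genes of these lists were chosen after their values were seen. The genes and lists were chosen with earlier results of these data known. The fit was tested on simulated data, and 17 alternatives were tried. Promoter windows came from the RefSeq table of GRCh38.p14. All columns of values were mapped to a sample. Protein sequences were not used here. Some genes of the marker and related lists are not reported here.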

Additional observations from a re-analysis of the deposited data

How the results depend on the processing

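The 17 called antioxidant genes kept their direction under each of the 17 alternatives, and 7 of them (NQO1, NFE2L2, GSTO1, GSTM3, GSTM2, CAT and SOD1) also kept their call under all 13 that use the 4 libraries. Among those 13, the number called moved most without a filter on low values, to 7 (1 higher, 6 lower, and 1 lower past a log2 fold change of 1), while 1446 of all genes were then called (851 higher, 595 lower, 307 higher past that size). Fewer genes were higher, 1 each, after chromosome centring and with eBayes without a trend. 1 gene was lower past that size after chromosome centring and, a choice made after seeing the data, among the genes outside chromosomes 10 and 20. Of all genes, those past both thresholds numbered 487 (302 higher) with a pseudocount of 1, 438 (239 higher) over protein-coding genes only, 1141 (759 higher) with limma voom on recovered fragments, and 741 higher on the TPM scale, against 737 (474 higher, 263 lower) as reported. Quantile normalization gave 359 higher and 338 lower. The TPM scale moved the median of all genes to 0.137.

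Leaving out 1 library gave 0 to 12 called antioxidant genes (0 to 2 higher, 0 to 10 lower), 0 to 3 of them past both thresholds (0 to 1 higher, 0 to 2 lower), and 42 to 3176 called among all genes (25 to 1827 higher, 17 to 1349 lower), 42 to 783 past both thresholds (25 to 483 higher, 17 to 300 lower). The lone library of a line was then assumed to vary like the other line. Several genes that were not called reversed: GSS to -0.34 and TXN2 to -0.14 after chromosome centring, and GSTM4 to 0.0448, PRDX5 to 0.0442 and PRDX6 to 0.0474 on the TPM scale. With 1 library left out, GPX4 ranged from -0.176 to 0.0198, PRDX4 from -0.0587 to 0.106, PRDX5 from -0.0873 to 0.0392, PRDX6 from -0.077 to 0.0354 and SOD2 from -0.00644 to 0.228. The cause of these moves was not tested.

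Libraries with the same number deviated together with a correlation of 0.0646 over all genes tested. Whether they were grown or prepared together is not stated in the sources, and this value cannot decide it. With the replicate block, 15 antioxidant genes (2 higher, 13 lower) and 3969 of all genes were called. GCLC, GSTP1 and KEAP1 then lost the call and GSTA4 gained it. GCLC and KEAP1 each lost their call in 6 of the 13 alternatives with 4 libraries, and GSTP1 in 5. Depth limits statements on the genes below the filter, which, apart from GSTO2, were at 0.515 FPKM or less in each library.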
